A study of Homo sapiens with 9 samples.

Results

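The p53 family and MDM regulators described here are 4 genes, TP63, TP73, MDM2 and MDM4, picked by symbol out of 58051 genes in the deposited counts. RNA was sequenced from A431 cells, an epidermoid carcinoma line that carries endogenous mutant p53. The 3 groups were unedited A431 parental (mutp53) cells, A431 Ctrl (mutp53) cells that went through the CRISPR procedure with an empty vector, and A431 p53 KO cells in which p53 was targeted by CRISPR, with 3 libraries each. All cells were grown from single colonies and harvested after 48 hrs, and no drug was given. Nothing says that the replicates came from separate clones or cultures, so p-values measure the spread between these libraries only, and a clone cannot be told apart from its genotype.

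p63 and p73 are transcription factors related to p53 that bind similar DNA sites, and p63 is known as a master regulator of squamous epithelium. Both genes make long (TA) proteins from an outer start and shorter (ΔN) proteins from an inner start, and mutant p53 can bind p63 and p73 protein and blunt their activity. MDM2 is a ubiquitin ligase that marks p53 for degradation and is itself switched on by wild-type p53, and MDM4 is its partner, which holds p53 inactive without strong ligase activity of its own.

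The first and an inner start of MDM2 and TP73 are shown because they differ in p53 sites. The windows are the 250 bases upstream of a start annotated by RefSeq on GRCh38.p14, read 5′ to 3′ on the plus strand. Capitals mark stretches of 20 bases that match the p53 full site, a pair of decamer sites side by side, with at most 3 mismatches. The site is a palindrome, so both strands were covered.

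MDM2, first start, chr12:68807922-68808171: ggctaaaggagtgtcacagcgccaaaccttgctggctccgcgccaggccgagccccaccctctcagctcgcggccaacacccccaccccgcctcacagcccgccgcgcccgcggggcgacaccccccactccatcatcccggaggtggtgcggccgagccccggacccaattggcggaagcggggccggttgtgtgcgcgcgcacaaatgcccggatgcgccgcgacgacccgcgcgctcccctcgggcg

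MDM2, inner start, chr12:68808767-68809016: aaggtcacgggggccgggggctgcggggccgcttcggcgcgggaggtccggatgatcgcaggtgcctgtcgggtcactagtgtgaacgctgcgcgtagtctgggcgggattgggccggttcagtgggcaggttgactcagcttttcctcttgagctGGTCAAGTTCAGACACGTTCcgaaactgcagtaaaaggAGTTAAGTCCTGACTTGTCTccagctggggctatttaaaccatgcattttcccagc

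TP73, first start, chr1:3652266-3652515: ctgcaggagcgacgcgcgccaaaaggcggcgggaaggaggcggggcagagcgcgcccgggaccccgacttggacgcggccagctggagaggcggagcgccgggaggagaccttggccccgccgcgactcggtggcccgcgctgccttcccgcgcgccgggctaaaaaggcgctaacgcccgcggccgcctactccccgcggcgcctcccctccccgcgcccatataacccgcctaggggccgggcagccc

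TP73, inner start, chr1:3690422-3690671: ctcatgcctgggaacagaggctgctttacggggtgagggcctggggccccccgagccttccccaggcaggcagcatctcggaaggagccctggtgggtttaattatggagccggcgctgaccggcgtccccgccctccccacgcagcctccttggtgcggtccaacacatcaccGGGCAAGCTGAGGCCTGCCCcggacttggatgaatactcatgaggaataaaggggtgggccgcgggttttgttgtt

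The inner MDM2 window, inside the gene, held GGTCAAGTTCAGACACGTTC with 2 mismatches and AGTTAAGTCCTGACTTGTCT with 3 mismatches. The inner TP73 window held GGGCAAGCTGAGGCCTGCCC with 2 mismatches. No match lay in the first windows of MDM2 and TP73, in a further inner TP73 window, or in the windows of TP63 (chr3:189631139-189631388) and MDM4 (chr1:204516156-204516405). For TP63 and MDM4 only the window of the first start was read. Inner starts of these genes, that of ΔNp63 among them, were not searched. Of 35116 RefSeq windows of this length, 1532 (4.36%) held a match with at most 3 mismatches and 197 (0.561%) held one with at most 2. A match describes letters and not binding, and gene counts do not tell which start a read came from.

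The libraries held 19783778 to 29840452 counts in all. Levels are given as CPM, which are counts scaled to library size with edgeR's TMM factors. The cells expressed the squamous and epithelial markers KRT5 and EGFR, with EGFR at 8665 to 17320 CPM, whereas KRT14 held only 0 to 13 counts. The summed CPM of the 9 squamous markers ran from 16263 to 19293 in parental cells, from 10948 to 13003 in Ctrl cells and from 15370 to 15986 in p53 KO cells, and most of it was EGFR. The other 8 markers summed to 1907 to 1973, 2004 to 2282 and 2218 to 2334 CPM. Of the fibroblast and blood markers, COL3A1, PDGFRA, LUM, PTPRC and CD3E were at 0 in every library, COL1A1 held 47 to 114 counts, and COL1A2, PDGFRB and CD14 held at most 1, 4 and 9. The endothelial markers PECAM1, CDH5 and VWF held at most 13 counts in a library.

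The library Ctrl replicate 1 stood apart. Its Pearson correlation with the other Ctrl libraries, taken across genes, was 0.986 to 0.988, while all other pairs within a group reached at least 0.993. Against the other 2 libraries of its group, the log2 difference between the 20% of genes with the longest exons and the 20% with the shortest was -0.51 in this library, compared with 0.18 and 0.32 in Ctrl replicates 2 and 3 and -0.26 in p53 KO replicate 3. The exons of TP63, TP73, MDM2 and MDM4 add up to 7479, 6767, 8306 and 11008 bases, longer than 74.0%, 68.5%, 78.8% and 88.6% of the genes tested. The members' differences that involve Ctrl cells are therefore also given without it.

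TP63, MDM2 and MDM4 passed the filter on low counts, and TP73 did not. Per length of exon, MDM2 (11.1 ± 0.463 RPKM, mean ± SD, n = 3) and TP63 (9.64 ± 0.292) led in parental cells, followed by MDM4 (3.33 ± 0.272) and TP73 (0.00606). In parental cells every MDM2 library lay above every TP63 library on this scale. In Ctrl cells TP63 (9.14 ± 2.41 RPKM) and MDM2 (8.53 ± 1.95) overlapped, and so they did in p53 KO cells (10.6 ± 1.28 and 10.2 ± 0.742). MDM4 came next in both (2.04 ± 0.698 and 2.73 ± 0.227).

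**Figure D1:**
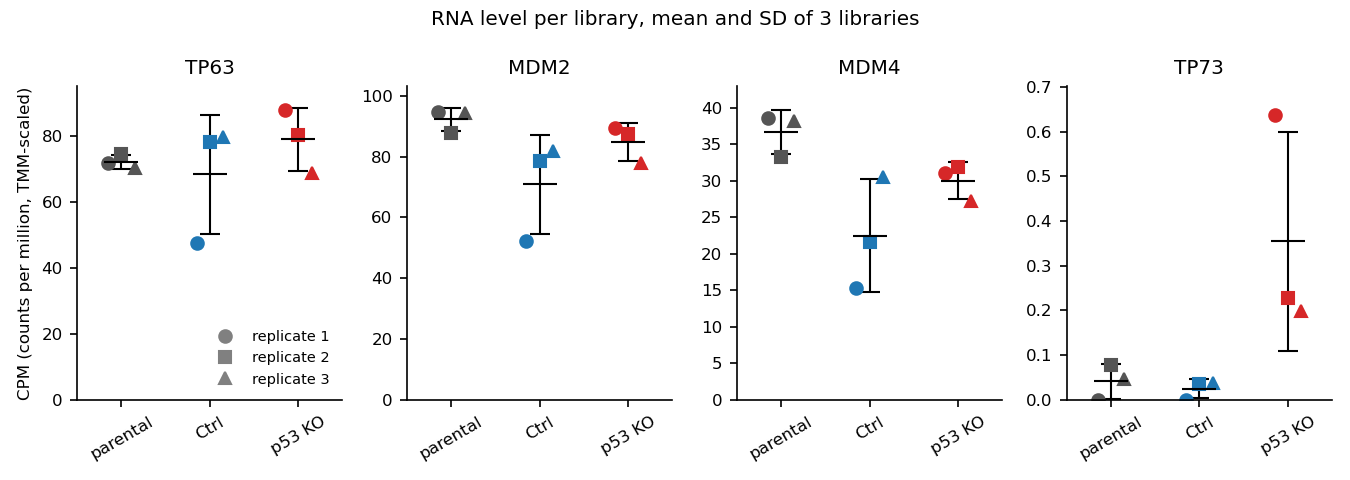
RNA level of TP63, MDM2, MDM4 and TP73 in CPM (y axis, linear, each panel with its own scale) for parental, Ctrl and p53 KO libraries; symbols mark replicates, and bars the mean and SD of 3 libraries. TP63 overlaps between groups, MDM2 and MDM4 lie lowest in Ctrl replicate 1, and TP73 stays below 1 CPM in every library.

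The first question was whether loss of mutant p53 went with a change in the RNA of its relatives. TP63 (ENSG00000073282, GRCh38 chr3:189631389-189897276) is the family member these squamous cells expressed. Its level was 71.6, 74.4 and 70.1 CPM in parental cells, 47.6, 78.0 and 79.5 CPM in Ctrl cells, and 87.8, 80.2 and 68.8 CPM in p53 KO cells. All 3 groups overlapped, whereas 40.4% of the genes tested separated p53 KO from Ctrl libraries. The lowest TP63 value of all belonged to Ctrl replicate 1. TP63 RNA did not pass the test in any comparison. The log2 fold change was 0.13 (95% interval -0.23 to 0.50, adjusted p = 0.627) in p53 KO against parental cells, 0.21 (-0.16 to 0.57, adjusted p = 0.391) in p53 KO against Ctrl cells, and -0.07 (-0.44 to 0.29, adjusted p = 0.761) in Ctrl against parental cells, all by edgeR's quasi-likelihood test with p-values adjusted by Benjamini-Hochberg over all genes tested. The intervals leave room for a rise of up to 1.49-fold against Ctrl cells. Leaving out Ctrl replicate 1, the difference between p53 KO and Ctrl cells was 0.0061 (-0.18 to 0.19, edgeR adjusted p = 0.967), and that between Ctrl and parental cells turned to 0.13 (edgeR adjusted p = 0.318). In bulk RNA, fewer cells with a transcript and less of it per cell cannot be told apart, and TAp63 and ΔNp63 are counted as 1 gene.

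TP73 (ENSG00000078900, chr1:3652516-3736201) was close to the limit of detection. Parental libraries held 0, 2 and 1 counts, Ctrl libraries 0, 1 and 1, and p53 KO libraries 19, 6 and 4. Every p53 KO library was above every other library. Among the 4556 genes that failed the filter but had at least 10 counts in total, 181 (3.97%) showed the same separation. The summed counts of 29 against 3 gave a ratio of 9.36 against parental cells (exact 95% interval 2.90 to 48.0), and 29 against 2 gave 14.1 against Ctrl cells (3.57 to 122), intervals that cover counting error only and not the spread between libraries. An exact two-sided permutation test of CPM, p53 KO against the 6 other libraries, gave p = 0.0119, the smallest that its 84 splits can give. It was chosen after seeing the data and only restates that every p53 KO library was above the others, so it adds no support. p53 KO replicate 1 held most of the counts, and without it the ratios were 5.30 (1.36 to 29.95) and 7.999 (1.70 to 75.1). Even there TP73 reached only 0.637 CPM, and the mean of 0.0524 RPKM in p53 KO cells exceeded that of 1.28% of the genes tested. When edgeR was run without the filter, TP73 was called higher in p53 KO cells, with log2 fold changes of 3.05 against parental cells (adjusted p = 0.00214) and 3.57 against Ctrl cells (adjusted p = 4.02e-04), values that depend on the prior count.

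TP73 ends in 691 bases shared with TP73-AS1, an antisense RNA gene on the minus strand. TP73-AS1 was the more abundant of the pair, at 8.0, 7.5 and 7.4 CPM in parental, 7.1, 6.7 and 6.4 in Ctrl and 5.3, 7.2 and 6.5 in p53 KO cells. It passed the test in no comparison (log2 fold changes -0.27, -0.09 and -0.18, edgeR adjusted p = 0.153, 0.628 and 0.294). The library with the most TP73 counts, p53 KO replicate 1, had the lowest TP73-AS1 level. The kit kept the strand, but the strand setting of the counting is not given in the sources used here, so reads in the shared bases may belong to either gene.

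The second question concerned the regulators. MDM2 (ENSG00000135679, chr12:68808177-68845544) lay at 94.7, 87.9 and 94.3 CPM in parental cells, at 52.3, 78.4 and 82.0 in Ctrl cells and at 89.4, 87.4 and 77.8 in p53 KO cells. The p53 KO libraries overlapped with both other groups. The Ctrl libraries were all below the parental ones, a separation that 43.9% of the genes tested showed in that comparison. By edgeR's quasi-likelihood test the log2 fold change was -0.12 (95% interval -0.43 to 0.19, adjusted p = 0.600) in p53 KO against parental cells, 0.26 (-0.05 to 0.57, adjusted p = 0.202) in p53 KO against Ctrl cells, and -0.38 (-0.69 to -0.07, adjusted p = 0.0804) in Ctrl against parental cells. Without Ctrl replicate 1 the last value was -0.20 (edgeR adjusted p = 0.0625), and that in p53 KO against Ctrl cells was 0.083 (edgeR adjusted p = 0.409). MDM2, whose inner start carries the p53 sites printed above, thus passed the test in none of the comparisons, and its interval against parental cells reaches from 0.741 to 1.14 times the parental level.

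MDM4 (ENSG00000198625, chr1:204516379-204558120) was the only one of the 3 members tested to be called, and it was called between the 2 groups that both keep mutant p53. It lay at 38.6, 33.2 and 38.2 CPM in parental cells, at 15.3, 21.6 and 30.6 in Ctrl cells and at 31.0, 31.9 and 27.2 in p53 KO cells. All Ctrl and all p53 KO libraries were below the parental ones, a separation from parental libraries shown by 43.9% and 47.4% of the genes tested, while Ctrl and p53 KO libraries overlapped. MDM4 fell by 0.70 on the log2 scale in Ctrl against parental cells (95% interval -1.12 to -0.27, edgeR adjusted p = 0.0282), to 0.616 times the parental level. In that comparison 20.3% of the genes tested were called, 10.6% as higher and 9.69% as lower, so 1 of the 3 members tested is not set apart from that background. In p53 KO against parental cells (18.1% called) the value was -0.29 (-0.71 to 0.13, edgeR adjusted p = 0.332), and in p53 KO against Ctrl cells (29.2% called) it was 0.41 (-0.01 to 0.84, edgeR adjusted p = 0.137), or 0.21 (edgeR adjusted p = 0.218) without Ctrl replicate 1.

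The MDM4 call did not rest on Ctrl replicate 1, without which it was -0.49 (edgeR adjusted p = 0.0119). It was lost without any 1 parental library, without Ctrl replicate 2, when the 2 groups were fitted alone (-0.70, edgeR adjusted p = 0.0624), or with the replicate number as a block (-0.73, edgeR adjusted p = 0.0509). None of the 3 members tested passed the wider limit of a log2 fold change beyond 1.5, which 1.95% of the genes tested passed for p53 KO against parental, 3.29% for p53 KO against Ctrl and 1.94% between the controls.

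**Figure D2:**
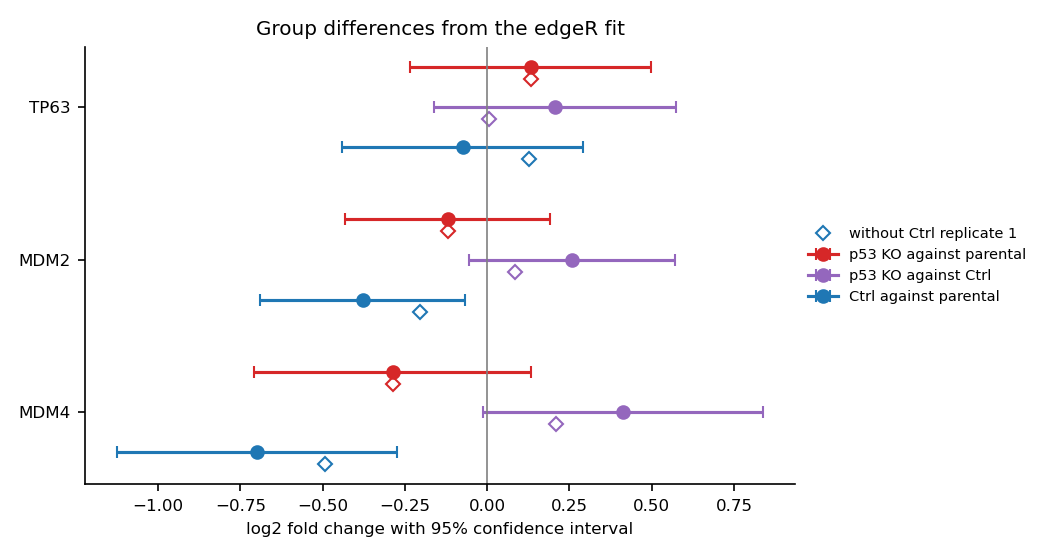
Log2 fold changes of TP63, MDM2 and MDM4 (x axis) in the 3 comparisons, with 95% confidence intervals from the edgeR fit to all 9 libraries; open diamonds give the value without Ctrl replicate 1. The intervals of TP63 cross 0 in every comparison, and MDM4 in Ctrl against parental is the only call among them, at -0.70.

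MDM2 and MDM4 act as a pair, and the ratio of their counts within a library does not depend on scaling. There were 2.45, 2.64 and 2.47 MDM2 counts per MDM4 count in the parental libraries, 3.42, 3.63 and 2.68 in those of Ctrl cells and 2.88, 2.74 and 2.86 in those of p53 KO cells. The p53 KO ratios (2.83 ± 0.0762, mean ± SD, n = 3) all lay above the parental ones (2.52 ± 0.106) and within the range of the Ctrl ones (3.24 ± 0.498). Against the 6 other libraries the mean log2 ratio in p53 KO cells differed by -0.0094, and an exact two-sided permutation test gave p = 0.976. Those 6 libraries pool a parental mean below and a Ctrl mean above that of p53 KO cells, so opposite gaps average out. The test therefore cannot tell whether p53 KO cells differ from either control. MDM2 and MDM4 moved together over the 9 libraries (Pearson's r = 0.948 of log2 CPM), and r was 0.819 for TP63 and MDM2. Ctrl replicate 1 is the lowest library for all 3 genes, and over the other 8 libraries r was 0.896 for MDM2 and MDM4 and -0.042 for TP63 and MDM2.

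**Figure D3:**
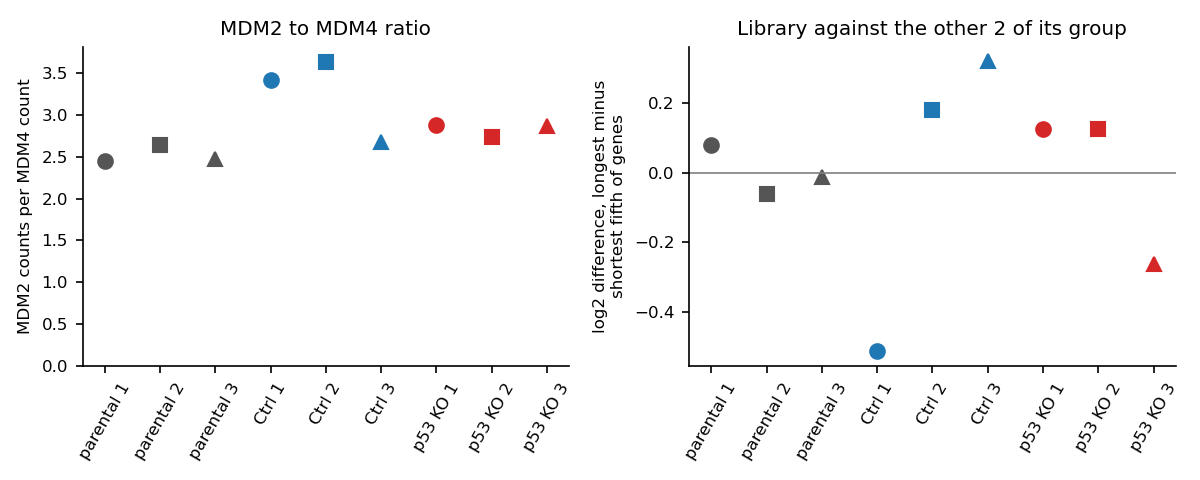
Left, MDM2 counts per MDM4 count in each library; right, for each library against the other 2 of its group, the log2 difference of the 20% of genes with the longest exons minus that of the 20% with the shortest. Ratios run from 2.45 to 3.63 and are highest in Ctrl replicates 1 and 2, and Ctrl replicate 1 has the lowest length value, -0.51.

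The genes whose log2 CPM followed each member most closely over the 9 libraries are given as a description. For TP63 they were SP4, NRIP1, LGR4, RBM43 and JMJD1C (r = 0.986 to 0.970). For MDM2 they were PDS5A, PANK3, UHRF1BP1L, MAP3K2 and IQGAP1 (r = 0.997 to 0.995), and for MDM4 they were HMGA2, CUL4A, MYSM1, MTMR4 and PHLPP2 (r = 0.990 to 0.982). Of these 15 genes, 14 have longer exons than the median gene tested. Without Ctrl replicate 1 the correlations were 0.834 to 0.928 for the TP63 set, 0.966 to 0.982 for the MDM2 set and 0.958 to 0.971 for the MDM4 set.

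Genes known to act on MDM2, MDM4 and p53 protein turnover were read next, with levels as mean ± SD of 3 libraries. Of 37 tested, 5 were called in p53 KO against parental cells (1 higher, 4 lower), 9 in p53 KO against Ctrl cells (4 and 5) and 6 in Ctrl against parental cells (1 and 5). Those are 13.5%, 24.3% and 16.2%, below the shares of all genes given above, of which 9.77% were higher and 8.36% lower in the first comparison, 15% and 14.2% in the second and 10.6% and 9.69% in the last. The medians of 0.03, -0.05 and -0.03 were close to 0. USP2, a deubiquitinase of MDM2, fell by 1.03 on the log2 scale in p53 KO against parental cells and fell by 1.11 against Ctrl cells (edgeR adjusted p = 0.00715 and 0.00258). TRIM24, a ubiquitin ligase that can target p53, fell by 0.82 and by 0.78 (edgeR adjusted p = 0.00133 and 9.75e-04). OTUD5, a deubiquitinase, rose by 0.37 and 1.10 and fell by 0.73 in Ctrl against parental cells, with 59.3 ± 0.694 CPM in parental cells, 35.7 ± 3.56 in Ctrl cells and 76.5 ± 2.98 in p53 KO cells. DYRK2, a kinase of p53, fell in p53 KO against Ctrl cells (-0.58, edgeR adjusted p = 0.00797), and against parental cells its value was -0.32 (edgeR adjusted p = 0.134). CCNG1, the MDM2-binding cyclin G1, rose by 0.41 against Ctrl cells (edgeR adjusted p = 0.00478), and its value against parental cells was -0.02. STUB1, a chaperone-linked ligase of mutant p53, rose in Ctrl against parental cells (0.42, edgeR adjusted p = 0.0374). CDKN2A, which encodes the MDM2 inhibitor ARF, did not pass the filter. Without Ctrl replicate 1 the counts called were 18, 12 and 8, which is 48.6%, 32.4% and 21.6% beside 33.5%, 35.0% and 20.7% of all genes tested in that fit, so that the first share then lay above that of all genes.

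The gene lists overlap, and STUB1, UBE4B and CHEK2, for example, are counted both among the turnover genes and among the partners here. CCNG1 is counted among the turnover genes and the p53-responsive genes. Protein partners and ligases of p63 and p73 were called in 5, 3 and 5 of 33 cases. Those are 15.2%, 9.09% and 15.2%, beside 18.1%, 29.2% and 20.3% of all genes tested. All those called in the p53 KO comparisons were lower, beside 8.36% and 14.2% of all genes tested that were lower. SMARCD3, a chromatin remodelling subunit, had the largest change of the list, with 0.812 ± 0.248 CPM in parental cells, 1.59 ± 0.173 in Ctrl cells and 0.289 ± 0.114 in p53 KO cells. TOPBP1, a replication checkpoint scaffold, fell by 0.70 and by 0.68 on the log2 scale in p53 KO against parental and Ctrl cells (edgeR adjusted p = 5.90e-04 and 3.19e-04). FBXO45, a ligase of p73, fell by 0.48 against parental cells (edgeR adjusted p = 0.00904), and against Ctrl cells its value was -0.30 (edgeR adjusted p = 0.0532). CHEK2, a DNA damage kinase, fell by 0.42 against Ctrl cells. When Ctrl replicate 1 was left out, the counts called were 13 (3 higher, 10 lower), 10 (all lower) and 6. Those are 39.4%, 30.3% and 18.2%, beside 33.5%, 35.0% and 20.7% of all genes tested in that fit.

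Genes linked to p63 in squamous epithelium were called in both directions, beside 18.1%, 29.2% and 20.3% of all genes tested in the 3 comparisons. Of 45 tested, 19 were called in p53 KO against parental cells (42.2%, 14 higher and 5 lower), 28 in p53 KO against Ctrl cells (62.2%, 14 and 14) and 18 in Ctrl against parental cells (40%, 14 and 4). The medians were 0.12, -0.01 and 0.12. GRHL3, a transcription factor of the epidermal barrier, lay at 14.6 ± 0.808 CPM in parental cells, 26.2 ± 0.569 in Ctrl cells and 3.53 ± 0.834 in p53 KO cells, and fell by 2.04 and by 2.88 on the log2 scale in p53 KO cells. CLCA2 rose against both controls (0.524 ± 0.0783, 0.389 ± 0.121 and 2.07 ± 0.199 CPM), and so did PTHLH, a parathyroid hormone-like peptide (1.21 ± 0.409, 0.952 ± 0.648 and 3.28 ± 0.149 CPM). KRT15, a basal keratin, was at 45.5 ± 3.59, 178 ± 43.7 and 77.5 ± 6.88 CPM, so that it rose against parental cells and fell against Ctrl cells. ZNF750 fell by 1.79 and FRAS1 fell by 2.71 against Ctrl cells, both had risen in Ctrl against parental cells, and neither passed the test against parental cells. KRT14, FGFR3, DLX5, SOX2 and BMP7 did not pass the filter. Of 46 genes tested without Ctrl replicate 1, 27, 30 and 22 were called. Those are 58.7%, 65.2% and 47.8%, beside 33.5%, 35.0% and 20.7% of all genes tested in that fit. TP63 RNA itself did not pass the test in any of these comparisons.

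**Figure D4:**
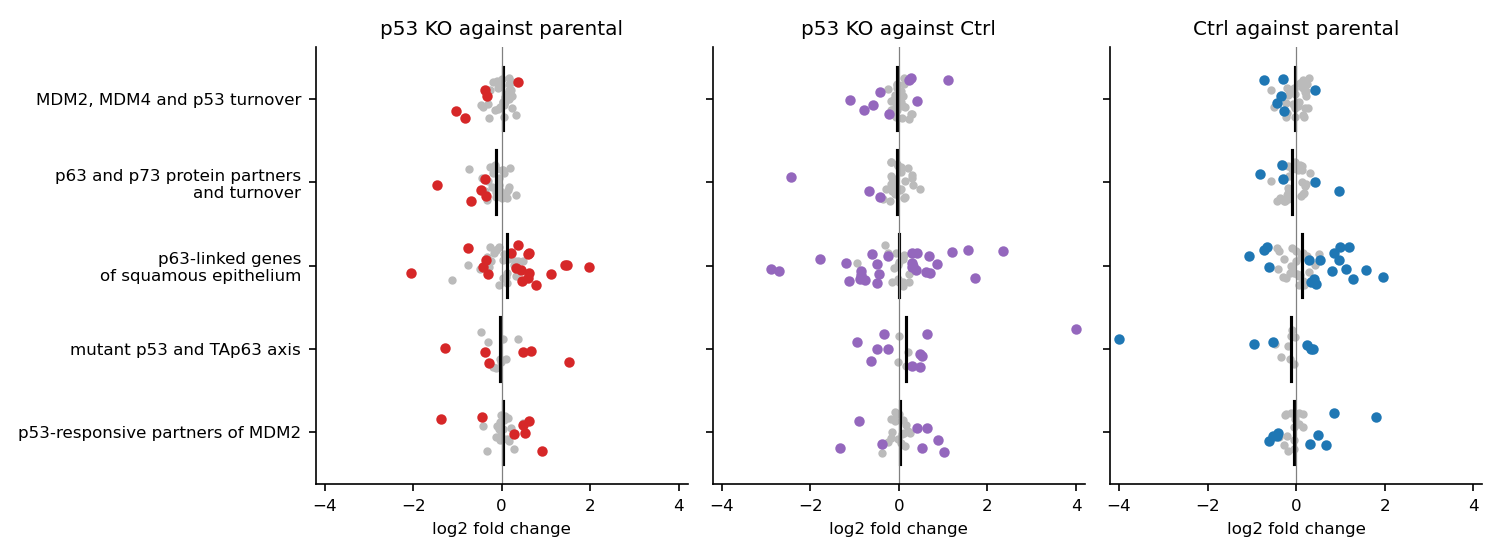
Log2 fold change of each tested gene (x axis, values beyond 4 drawn at the edge) in 5 gene lists (y axis) for the 3 comparisons; coloured points passed an adjusted p of 0.05, grey points did not, and black lines are list medians. The p63-linked genes have 19, 28 and 18 coloured points spread to both sides of 0, and the medians of all lists lie between -0.12 and 0.16.

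A short list, named the TAp63 list below, covered genes linked to mutant p53, only some of them by way of TAp63. Of 15 tested, 6, 11 and 6 were called (40%, 73.3% and 40%, beside 18.1%, 29.2% and 20.3% of all genes tested), with 3 higher and 3 lower against parental cells and 6 higher and 5 lower against Ctrl cells. MET, the receptor of hepatocyte growth factor, lay at 217 ± 6.89 CPM in parental cells, 172 ± 44.5 in Ctrl cells and 89.7 ± 10.3 in p53 KO cells, and fell by 1.27 and by 0.94 on the log2 scale (edgeR adjusted p = 4.26e-04 and 0.00137). SREBF2, a regulator of sterol synthesis, fell by 0.37 and by 0.62, whereas BHLHE41, a transcription factor also called Sharp1, rose by 0.67 and 0.30. ADAMTS9, a secreted protease, held 85 counts in parental cells, 1 in Ctrl cells and 255 in p53 KO cells. Its count ratio was 2.90 (2.26 to 3.76) for p53 KO against parental cells and 248 (44.2 to 9852) against Ctrl cells, with exact 95% intervals for counting error only. ETS1 fell by 0.96 in Ctrl against parental cells, and ARRDC3 rose by 0.52 in p53 KO against Ctrl cells. PDGFRB did not pass the filter. With Ctrl replicate 1 omitted, the counts called were 9, 13 and 6. Those are 60%, 86.7% and 40%, beside 33.5%, 35.0% and 20.7% of all genes tested in that fit.

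Genes that wild-type p53 can switch on, MDM2 among them, were called in 7, 8 and 9 of 26 cases (26.9%, 30.8% and 34.6%, beside 18.1%, 29.2% and 20.3% of all genes tested). The share against Ctrl cells is close to that of all genes. In p53 KO cells 5 were higher and 2 lower against parental cells, and 5 were higher and 3 lower against Ctrl cells. Of all genes tested, 9.77% were called higher and 8.36% lower against parental cells, and 15% and 14.2% against Ctrl cells. ZMAT3, an RNA-binding protein, fell by 1.38 and by 1.33 on the log2 scale (edgeR adjusted p = 6.04e-04 and 3.50e-04), from 26.8 ± 2.58 and 25.9 ± 6.43 CPM to 10.3 ± 1.97 CPM. CDKN1A, the cell cycle inhibitor p21, rose by 0.49 and 1.01 but stayed low, at 5.16 ± 0.561 CPM in parental cells, 3.60 ± 0.411 in Ctrl cells and 7.26 ± 0.952 in p53 KO cells. FAS, a death receptor, rose by 0.61 and 0.89. GDF15, a stress cytokine, was at 3.99 ± 0.909, 14.0 ± 2.80 and 7.46 ± 1.24 CPM, so that it rose against parental cells and fell against Ctrl cells. BBC3 and PHLDA3 rose in Ctrl against parental cells (0.87 and 0.68), and PHLDA3 also rose in p53 KO against parental cells (0.53). SPATA18 and EDA2R were among the 3 genes that did not pass the filter. The counts called without Ctrl replicate 1 were 11, 9 and 8. Those are 42.3%, 34.6% and 30.8%, beside 33.5%, 35.0% and 20.7% of all genes tested in that fit.

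The chromosomal surroundings of the members were described last, as genes tested that start within 5 Mb. The surroundings of TP63 on chromosome 3 differed from TP63 itself. Of its 42 neighbours, 18 were called in p53 KO against parental cells (4 higher, 14 lower) and 27 in p53 KO against Ctrl cells (6 and 21). That is 42.9% and 64.3%, beside 18.1% and 29.2% of all genes tested, of which 8.36% and 14.2% were lower. In Ctrl against parental cells 14 of the 42 were called (33.3%, 11 higher and 3 lower). Of all genes tested, 20.3% were called in that comparison, and 10.6% were called higher. The neighbours' median log2 fold changes were -0.26 and -0.40 in the p53 KO comparisons, beside 0.13 and 0.21 for TP63, and 0.12 in Ctrl against parental cells. Over all genes tested the medians were 0.0065, 0.0060 and 0.0029. Within 10 Mb, 54 of 116 neighbours (46.6%) were called in p53 KO against parental cells, 49 of them lower, with a median of -0.36. In Ctrl against parental cells 31 of the 116 (26.7%) were called, 28 of them higher, with a median of 0.14. Within 2 Mb only 9 neighbours were tested, and their median in p53 KO against parental cells was -0.04. Of the nearest genes on each side, TPRG1 rose in p53 KO cells (1.15 against parental, edgeR adjusted p = 0.0396). P3H2 was higher in p53 KO against Ctrl cells (0.31, edgeR adjusted p = 0.0178) but not against parental cells (0.013, edgeR adjusted p = 0.934). It fell in Ctrl against parental cells (-0.29, edgeR adjusted p = 0.0324).

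In the p53 KO comparisons the other surroundings had medians closer to 0. The median over 106 neighbours of TP73 was 0.06 for p53 KO against parental, 0.03 against Ctrl and 0.07 between the controls. Of these, 11.3%, 17.0% and 14.2% were called, beside 18.1%, 29.2% and 20.3% of all genes tested. Over 44 neighbours of MDM2 the median was -0.04, 0.11 and -0.17. Of these neighbours, 8 (18.2%) were called in Ctrl against parental cells, all lower. Among all genes tested 20.3% were called in that comparison, and 9.69% were lower. Without Ctrl replicate 1 the median of the MDM2 neighbours there was -0.099. In that fit 11 of the 44 were called, 2 higher and 9 lower, beside 20.7% of all genes tested. The shares of all genes called higher and lower in that fit are not given here. Over 83 neighbours of MDM4 it was 0.0050, 0.04 and -0.02. WRAP73 next to TP73, and SLC35E3 and CPSF6 next to MDM2, passed the test in none of the comparisons. NFASC, the nearest tested gene downstream of MDM4, rose in p53 KO cells by 1.82 and 1.93 on the log2 scale (edgeR adjusted p = 6.66e-04 and 2.37e-04). PIK3C2B, on the other side of MDM4, rose in Ctrl against parental cells (0.47, edgeR adjusted p = 0.0117), the comparison in which MDM4 fell. In p53 KO against Ctrl cells PIK3C2B fell (-0.58, edgeR adjusted p = 0.00187), and against parental cells its value was -0.11 (edgeR adjusted p = 0.526).

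**Figure D5:**
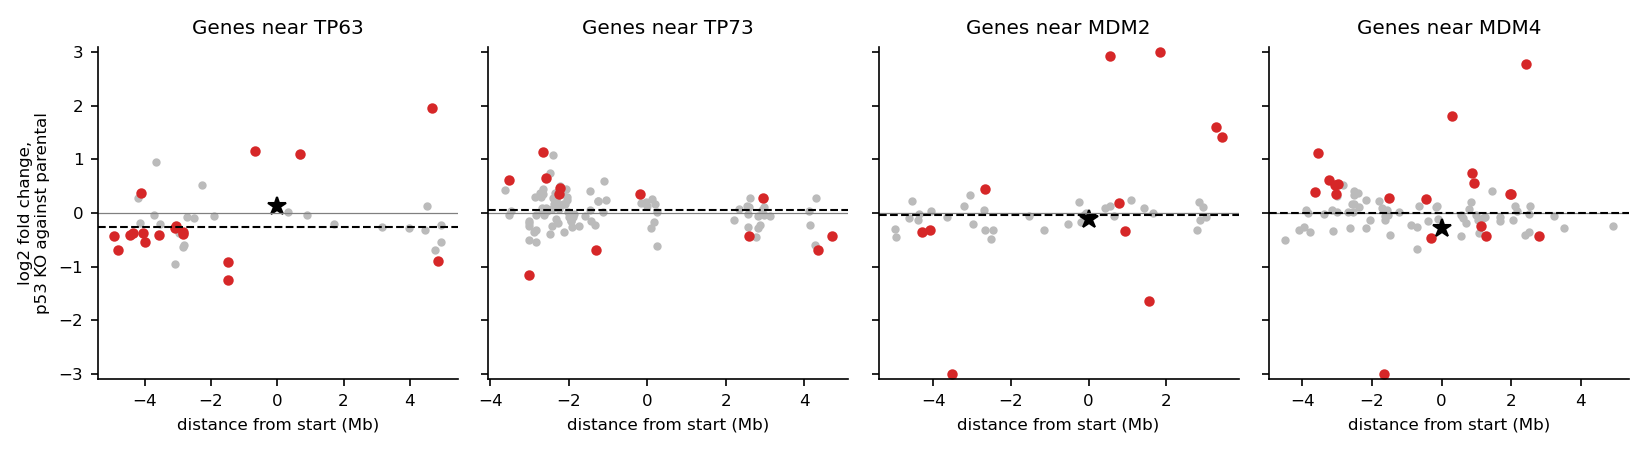
Log2 fold change in p53 KO against parental cells (y axis, values beyond 3 drawn at the edge) of the genes tested within 5 Mb of each member, by distance from its start in Mb (x axis). Red points passed an adjusted p of 0.05, stars mark the member, dashed lines the neighbours' median, and TP73 has no star because it was not tested; 14 of the 18 called neighbours of TP63 lie below 0 while TP63 lies at 0.13.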

How the data were processed

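Strand-specific poly(A) libraries were made from 200 ng of RNA with 14 PCR cycles and sequenced as paired-end reads. Per the labels and the study's methods, the authors aligned reads to GRCh38 with STAR 2.5.1b, used featureCounts for gene counting, and deposited raw counts without normalization. Multi-mapped reads and strand settings are not given in the sources used here.

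From these counts, edgeR 4.0.16 (R 4.3.3) was run on all 9 libraries with TMM factors and filterByExpr (minimum count 10), which left 14513 genes. Groups were compared by its quasi-likelihood test, p-values were adjusted by Benjamini-Hochberg over these genes, and a gene was called at an adjusted p of at most 0.05. TP73 failed the filter, so it was given as summed counts with an exact conditional 95% interval and an exact permutation test, chosen after seeing the data. In exact permutation tests 3 libraries against 6 cannot go below 0.0119. The exact intervals of summed counts cover counting error only, whereas edgeR's intervals include the spread between libraries. The reads carry no molecular identifiers.

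Gene positions and exon lengths for RPKM were those of GENCODE release 44, not of the release used for counting, and 14397 tested genes had an entry there by identifier. Promoter windows came from RefSeq. On simulated data with 200 changed genes edgeR and DESeq2 were tested first. Named genes were the members, antisense genes of members, up to 6 called genes of each list with the largest change in any comparison, the 5 genes most correlated with each tested member, and the nearest tested gene on each side. The gene that was targeted, and some genes that this rule names, are not reported here. The members, lists and tests were chosen with earlier results of these data known. Alternatives were DESeq2 1.42.0 on all libraries or on 2 groups, its size factors in edgeR, 2 other filters, the replicate number as a block, each library left out, and, added after seeing the data, removal of each library's trend with exon length.

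Replicate numbers were checked for pairing. Correlations of deviations between same-numbered libraries ran from -0.35 to 0.04, so the main fit has no block. Figures were drawn with matplotlib.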

Additional observations from a re-analysis of the deposited data

How the results depend on the processing

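Of the differences of TP63, MDM2 and MDM4, those of TP63 and MDM2 between p53 KO and either control kept their direction and stayed short of the threshold in every alternative run. MDM4 in Ctrl against parental cells stayed lower in all of them, from -0.98 to -0.49 with 1 library left out (edgeR adjusted p from 0.00153 to 0.0963), but lost its call with the 2 groups alone (-0.70). Its other differences gained a call in some settings: in p53 KO against parental cells with DESeq2 or edgeR on the 2 groups alone (-0.29 in both, adjusted p = 0.0120 and 0.0180, range over all alternatives 0.0120 to 0.583), and in p53 KO against Ctrl cells without a filter (0.42), with the exon length trend removed (0.40) and without Ctrl replicate 3 (0.21 to 0.69 over libraries left out). MDM2 in Ctrl against parental cells was called without a filter (-0.38) and without Ctrl replicate 3 (-0.49 to -0.20 over libraries left out). TP63 in Ctrl against parental cells changed sign without Ctrl replicate 1 (-0.19 to 0.13). The log2 count ratio of TP73 in Ctrl against parental cells, 2 counts against 3, changed sign without parental replicate 2 (-1.23 to 0.36), whereas in p53 KO cells its lowest value was 2.41 against parental and 3.00 against Ctrl cells. The log2 MDM2 to MDM4 ratio in p53 KO against the 6 other libraries changed sign without Ctrl replicate 1, Ctrl replicate 2 or p53 KO replicate 2 (-0.052 to 0.061). The causes were not tested.

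The replicate numbers did not pair the libraries, as 0 of 9 libraries correlated best with 1 of their own number. With the number as a block, MDM4 in Ctrl against parental cells was -0.73 (edgeR adjusted p = 0.0509), and the counts called in this comparison were 2 for turnover genes and 1 for p63 and p73 partners, and 7 for the TAp63 list in p53 KO against Ctrl cells. The genes called in all were 1757, 3406 and 1691 with the block, beside 2631, 4240 and 2943 without it.

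List counts moved with the setting, and so did the number of genes called in all. In p53 KO against parental cells, turnover genes called were 15 with DESeq2 on the 2 groups, 17 with edgeR on the 2 groups and 10 without a filter, partners 13, 13 and 10, and p53-responsive genes 11 with edgeR on the 2 groups. In Ctrl against parental cells, turnover genes were 3 and 2, and partners 2 and 2, in those 2 fits, and partners 11 without a filter. In p53 KO against Ctrl cells, the TAp63 list held 7 and 6 in those fits, and partners 7 without a filter and 6 with the length trend removed. With 1 library left out, turnover genes ranged from 3 to 18, 7 to 12 and 2 to 11 in the 3 comparisons, partners from 2 to 13, 3 to 10 and 0 to 11, p63-linked genes from 15 to 27, 26 to 30 and 15 to 22, the TAp63 list from 4 to 9, 7 to 13 and 3 to 6, and p53-responsive genes from 4 to 11, 7 to 9 and 4 to 12. DESeq2 on 2 groups called 4210, 3382 and 2261 genes in all, edgeR on 2 groups 4831, 3252 and 1869. Without a filter 3370, 4772 and 4205 genes were called in all, and with the length trend removed 2994, 4762 and 3323. With 1 library left out, the genes called in all ranged from 1568 to 4944, 3100 to 5162 and 1379 to 4375.

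Neighbour medians depended on the window. At TP63 they were -0.042, -0.050 and 0.38 within 2 Mb, and -0.36 and -0.49 in the p53 KO comparisons within 10 Mb. In p53 KO against parental cells the 2 Mb medians were 0.0095 at MDM2 and -0.050 at MDM4. Depth limits TP73 most, with 0 to 19 counts per library. It was called in p53 KO cells against both controls by edgeR without a filter and by DESeq2 on the 2 groups (adjusted p = 0.0274 against parental and 0.0237 against Ctrl cells), and these fitted values depend on few counts.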
